A study of Arabidopsis thaliana with 24 samples.

Results

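The 6 COPT genes of Arabidopsis thaliana, which encode high-affinity copper transporters of the CTR family, were followed through the first divisions of the embryo. So was SPL7, the gene of a transcription factor that switches on COPT1 and COPT2 when copper is scarce. The 7 genes were chosen by locus, as COPT1 (AT5G59030), COPT2 (AT3G46900), COPT3 (AT5G59040), COPT4 (AT2G37925), COPT5 (AT5G20650), COPT6 (AT2G26975) and SPL7 (AT5G18830), out of 32399 loci listed for each library. They were taken up with their values in these libraries already known, so their levels and the differences between cell types are given as descriptions without a test.

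The data are 24 RNA-seq libraries from hybrid embryos of reciprocal crosses between the accessions Col and Ler, in 8 groups of 3 libraries. Embryo proper (EP) and suspensor (SUS) were isolated from 32-celled embryos, and the apical cell (AC) and the basal cell (BC) from 2-celled embryos, each with a Col mother and a Ler father or with a Ler mother and a Col father. Every embryo was thus an F1 hybrid of wild-type accessions, grown under greenhouse long days with no treatment, and no inbred embryo serves as a control. The samples are described as independent biological replicates, but how many embryos or plants went into each is not given, so the p-values below measure the spread between these libraries.

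Plant cells take up copper as Cu(I) through COPT proteins at the plasma membrane, and COPT5 releases it from the vacuole and its precursors. When copper is scarce, SPL7, a SQUAMOSA PROMOTER BINDING PROTEIN-LIKE factor, binds GTAC cores in promoters and switches on COPT1, COPT2, the plastid iron superoxide dismutase FSD1, and the microRNAs miR398 and miR408, which lower the transcripts of abundant copper proteins such as the superoxide dismutases CSD1 and CSD2. The basal cell gives rise to the suspensor, a file of cells that anchors the embryo and feeds it from maternal tissue, whereas the apical cell gives rise to the embryo proper.

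The stretches before the annotated starts of the genes are shown first because SPL7 reads its target core there. The sequences are RefSeq's, from assembly TAIR10.1, whose coordinates are used throughout. They run 5′ to 3′ on the gene's own strand over the 250 bases before the transcript start. For MIR408, which has no annotated mRNA, the start of the gene feature was used instead. Capitals mark the core GTAC, which reads the same on both strands and cannot overlap itself. The first, of COPT2, is chr3:17268625-17268874 on the plus strand. The second, of COPT3, is chr5:23836375-23836624 on the plus strand. The third, of COPT1, is chr5:23834746-23834995 on the minus strand. The fourth, of MIR408, the locus of the miR408 precursor and a known SPL7 target, is chr2:19319564-19319813 on the plus strand.
COPT2: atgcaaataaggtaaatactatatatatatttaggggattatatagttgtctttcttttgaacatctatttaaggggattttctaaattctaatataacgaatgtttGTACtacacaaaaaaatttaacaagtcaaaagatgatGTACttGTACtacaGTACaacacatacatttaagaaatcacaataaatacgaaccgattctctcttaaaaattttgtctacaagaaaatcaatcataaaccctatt
COPT3: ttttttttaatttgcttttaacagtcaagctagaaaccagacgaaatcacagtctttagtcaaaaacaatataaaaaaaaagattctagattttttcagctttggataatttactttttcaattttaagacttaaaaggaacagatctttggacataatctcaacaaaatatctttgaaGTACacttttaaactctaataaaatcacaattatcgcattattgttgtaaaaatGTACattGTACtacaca
COPT1: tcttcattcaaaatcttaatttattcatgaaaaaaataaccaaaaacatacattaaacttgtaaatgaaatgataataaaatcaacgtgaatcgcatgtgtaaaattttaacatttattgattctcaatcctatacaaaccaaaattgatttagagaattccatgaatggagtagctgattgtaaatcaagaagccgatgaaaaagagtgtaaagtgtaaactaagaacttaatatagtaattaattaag
MIR408: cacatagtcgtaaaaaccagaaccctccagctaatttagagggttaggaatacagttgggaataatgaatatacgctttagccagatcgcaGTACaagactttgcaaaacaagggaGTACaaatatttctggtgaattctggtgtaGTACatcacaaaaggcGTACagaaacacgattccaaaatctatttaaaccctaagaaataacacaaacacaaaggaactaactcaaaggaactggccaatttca

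COPT2 held 4 cores in this window, starting 143, 106, 100 and 92 bases before the transcript start, and COPT3 held 3, at 71, 17 and 10 bases. COPT1, COPT4, COPT5, COPT6 and SPL7 held 0. Among the 26712 protein-coding genes whose windows could be read, 34.4% held at least 1 core, 1.43% at least 3 and 0.277% at least 4. The annotated start matters here. The gene feature of COPT2 begins 175 bases before its only transcript, and the 250 bases before that feature held 0 cores. Over the 600 bases before the coding start, COPT1 and COPT2 held 4 cores each, COPT3 held 3, COPT6 held 2, and COPT4, COPT5 and SPL7 held 0, where 2.37% of genes held at least 4 and 25.3% at least 2. Of the other copper genes drawn, MIR408 held 4 in the 250 bases before its start, YSL2 (a metal-nicotianamine transporter) held 3, CSD1 held 2, the copper chaperone gene CCH and FSD1 held 1 each and CSD2 held 0. Over the 600 bases before the coding start the order differed, with 5 in YSL2, 5 in FSD1, 4 in CCH, and 0 in CSD1 and CSD2. A match is a string of 4 letters and was not measured as binding.

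**Figure D1:**
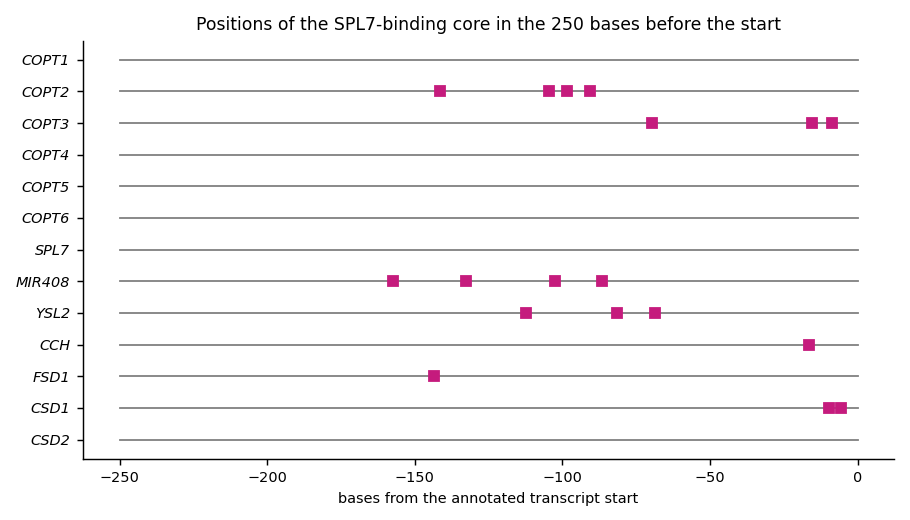
Positions of the GTAC core (squares) in the 250 bases before the annotated transcript start, in bases from that start, for the 7 genes and 6 other copper genes (rows). For MIR408 the start is that of the gene feature. COPT2 and MIR408 carry 4 squares each and COPT3 and YSL2 carry 3, while COPT1, COPT4, COPT5, COPT6, SPL7 and CSD2 carry 0.

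The transporter genes are small. Each of the 6 has a single annotated transcript of 1 exon, from 636 bases in COPT2 to 1253 bases in COPT1, with a coding part from 438 bases in COPT4 and COPT6 to 513 bases in COPT1. COPT1 lies at chr5:23833493-23834745 on the minus strand and COPT3 at chr5:23836625-23837350 on the plus strand, so that the pair are divergent neighbours with 1879 bases between them. COPT2 lies at chr3:17268700-17269510 and COPT6 at chr2:11512727-11513695, both on the plus strand. COPT4 lies at chr2:15870077-15870754 and COPT5 at chr5:6985298-6986037, both on the minus strand. SPL7, at chr5:6275895-6280681 on the plus strand, has 3 transcripts, the longest coding one with 11 exons and 2457 coding bases. The coding sequences of COPT2 and COPT6 were 74.2% identical, those of COPT1 and COPT2 71.3%, with a longest shared transcript stretch of 30 bases for COPT1 and COPT2, and those of COPT1 and COPT5 45.0%. COPT5 overlaps the loci AT5G20640 and AT5G03185 on the other strand, and the counting is not stated to use strand. AT5G03185 is not among the loci listed for the libraries, so its level cannot be given. AT5G20640 was listed at 0.07 to 0.69 FPKM in the embryo proper, 0 to 0.05 FPKM in the suspensor, 0 to 3.92 FPKM in the apical cell and 0 FPKM in all 6 basal cell libraries, each below every COPT5 value in the same cell type.

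All values are FPKM, fragments scaled to transcript length and to the library's mapped fragments, as the authors deposited them, so levels can be set side by side between genes. Summed FPKM ran from 912474.8 to 1249916.3 per library, and 12611 to 15366 loci reached 1 FPKM. The 10 highest loci took 16.1% to 26.28% of the summed FPKM in suspensor libraries, compared with 4.32% to 6.73% elsewhere. Summed lineage markers were higher in the labelled lineage at both stages, but single genes did not all follow the labels. The summed FPKM of 4 apical lineage genes (WOX2, DRN, HAN, ZPR3) was 332 to 619 in the embryo proper, 0.14 to 9.84 in the suspensor, 272 to 578 in the apical cell and 86.2 to 180 in the basal cell. The sum of 3 basal lineage genes (WOX8, WOX9, PIN7) was 77.4 to 122 in the embryo proper, 553 to 779 in the suspensor, 26.8 to 99.3 in the apical cell and 510 to 664 in the basal cell. WOX2 averaged 88.0 FPKM in the embryo proper, 2.77 in the suspensor, 166 in the apical cell and 94.4 in the basal cell. ZPR3 was listed at 0 in all apical and basal cell libraries. WOX9 averaged 105 FPKM in the embryo proper, 229 in the suspensor, 12.45 in the apical cell and 342 in the basal cell. Markers of neighbouring seed tissues moved with cell type too. The sum of 9 endosperm genes was 1.23 to 3.12 in the embryo proper, 72.2 to 249 in the suspensor, 6.85 to 42.7 in the apical cell and 59.4 to 419 in the basal cell. The largest part in each cell type came from the sucrose transporter gene SUC5. AGL62 was at 0.9 to 30.5 FPKM in the suspensor and 0 to 13.57 FPKM in the basal cell. It was at 0 to 2.18 FPKM in the embryo proper and 0 to 1.06 FPKM in the apical cell. FWA, FIS2, MEA, IKU2 and MINI3 did not exceed 2.57 FPKM, and PHE1 and ZOU were at 0 in all libraries. The sum of 9 seed coat genes was 26.9 to 38.0 in the embryo proper, 6.24 to 47.0 in the suspensor, 1.56 to 3.71 in the apical cell and 1.15 to 36.2 in the basal cell, with TT10 at 0 throughout. Most of the seed coat sum in the embryo proper came from STK (12.23 to 27.47 FPKM) and MUM4 (10.42 to 17.67 FPKM). BAN, CHS and DFR went the other way. They did not exceed 0.72 FPKM in the embryo proper or 0.28 FPKM in the apical cell. In the suspensor they ranged from 0 to 7.98, 26.17 and 11.51 FPKM, and in the basal cell from 0 to 2.53, 9.87 and 18.23 FPKM. The part of neighbouring tissue in the COPT levels was not tested. For 4 libraries (suspensor, Ler mother, replicate 1, and basal cell, Col mother, replicate 3, and Ler mother, replicates 2 and 3) the protocol names a second library kit as a possible alternative, and calls among the named genes that were lost without them are given beside the results.

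COPT2, a plasma membrane transporter induced by copper shortage, was among the most abundant transcripts of the apical cell and of the suspensor and was listed at or near 0 in the embryo proper. In the embryo proper it was listed at 0, 0 and 0 FPKM with a Col mother and at 0.47, 0.11 and 0.08 FPKM with a Ler mother. In the suspensor it stood at 440.51, 525.96 and 250.25 FPKM with a Col mother and at 205.24, 272.97 and 153.74 FPKM with a Ler mother. All 6 suspensor libraries thus lay far above all 6 embryo proper libraries from embryos of the same stage. In the apical cell COPT2 stood at 302.52, 432.6 and 384.57 FPKM with a Col mother and at 547.25, 442.0 and 680.88 FPKM with a Ler mother. In the basal cell it stood at 67.72, 88.85 and 68.26 FPKM with a Col mother and at 323.24, 112.43 and 211.98 FPKM with a Ler mother. In order of mean level, the apical cell came first (465 ± 132.5 FPKM), then the suspensor (308 ± 144 FPKM) and the basal cell (145 ± 102 FPKM; SD, n = 6 each), with the ranges of neighbours in that order overlapping, and the embryo proper came last, apart from the rest. Among all loci of a library, ordered by FPKM, COPT2 ranked 15991 to 18558 in the embryo proper, 327 to 1186 in the suspensor, 244 to 512 in the apical cell and 612 to 2635 in the basal cell. No fold is given for the embryo proper, where 3 libraries list COPT2 at 0. The fitted log2 difference, on the log2(FPKM + 1) scale on which all fitted differences below are given, was 1.21 for suspensor minus basal cell and 1.88 for apical minus basal cell (SE 0.24 each), and 0.82 and 1.498 without the 4 libraries that name a second kit. In these bulk samples, fewer cells that express a gene and less of its RNA per cell cannot be told apart.

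**Figure D2:**
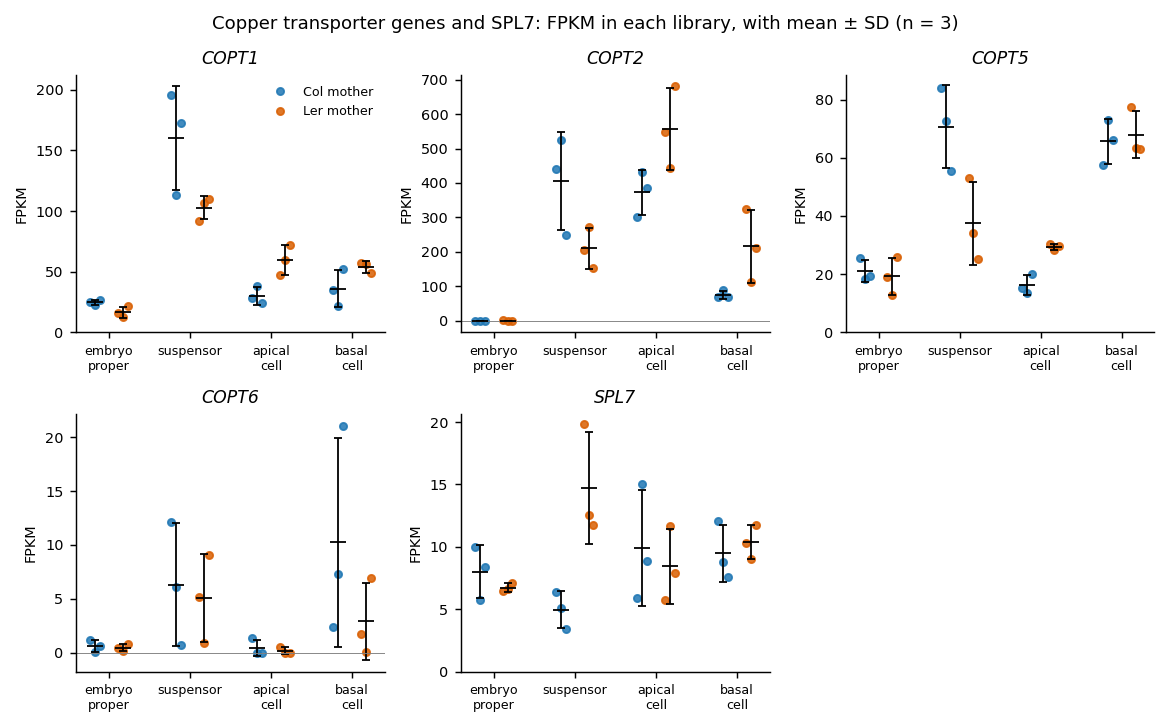
FPKM of COPT1, COPT2, COPT5, COPT6 and SPL7 (panels, each with its own linear axis) in every library, by cell type and mother (blue, Col; orange, Ler); bars mark the mean and SD of 3 libraries. COPT2 is at 0 to 0.47 FPKM in the embryo proper and at 67.72 FPKM or more elsewhere, COPT1 is highest in the suspensor, COPT5 is high in both basal lineage cell types, and SPL7 stays between 3.42 and 19.84 FPKM.

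COPT1, the main root and pollen copper importer of the family, was present in every library and highest in the suspensor. It stood at 24.94, 22.88 and 27.07 FPKM in the embryo proper with a Col mother and at 15.75, 12.68 and 21.55 FPKM with a Ler mother. In the suspensor the values were 195.42, 112.86 and 172.76 FPKM with a Col mother and 91.99, 106.3 and 110.15 FPKM with a Ler mother. The lowest suspensor library thus lay above the highest library of every other cell type. The apical cell had 28.33, 38.48 and 23.93 FPKM with a Col mother and 47.53, 59.42 and 72.39 FPKM with a Ler mother. The basal cell had 34.65, 21.72 and 51.86 FPKM with a Col mother and 57.59, 56.56 and 48.56 FPKM with a Ler mother. The suspensor (132 ± 41.9 FPKM) was followed by the basal cell (45.2 ± 14.2 FPKM) and the apical cell (45.0 ± 18.6 FPKM), which overlapped almost wholly, and by the embryo proper (20.8 ± 5.53 FPKM; SD, n = 6 each), whose range overlapped those of both early cells. Fitted log2 differences were -1.02 for embryo proper minus apical cell, 1.54 for suspensor minus basal cell, -0.03 for apical minus basal cell and -2.59 for embryo proper minus suspensor (SE 0.21 each).

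COPT5, which acts at the vacuole and prevacuolar compartment to return stored copper to the cytosol, was high in both basal lineage cell types and low in both apical lineage ones. Its level was 25.53, 18.21 and 19.45 FPKM in the embryo proper with a Col mother and 19.15, 12.85 and 25.78 FPKM with a Ler mother. The suspensor had 83.87, 72.74 and 55.47 FPKM with a Col mother and 53.15, 34.15 and 25.28 FPKM with a Ler mother. The suspensor and embryo proper ranges touched only at their ends, through the lowest suspensor and the 2 highest embryo proper libraries. The apical cell had 15.14, 13.69 and 20.19 FPKM with a Col mother and 30.23, 28.25 and 29.52 FPKM with a Ler mother. The basal cell had 57.64, 73.06 and 66.17 FPKM with a Col mother and 77.35, 63.38 and 63.15 FPKM with a Ler mother, all above every apical cell library. The basal cell (66.8 ± 7.21 FPKM) and the suspensor (54.1 ± 22.2 FPKM) overlapped, as did the apical cell (22.8 ± 7.46 FPKM) and the embryo proper (20.2 ± 4.88 FPKM; SD, n = 6 each). Fitted log2 differences were -0.14 for embryo proper minus apical cell, -0.40 for suspensor minus basal cell, -1.57 for apical minus basal cell and -1.30 for embryo proper minus suspensor (SE 0.21 each).

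COPT6, a plasma membrane transporter known from shoots, was low, and its higher values were in the basal lineage and uneven between libraries. The embryo proper had 1.13, 0.07 and 0.6 FPKM with a Col mother and 0.43, 0.19 and 0.79 FPKM with a Ler mother. The suspensor had 12.11, 6.12 and 0.7 FPKM with a Col mother and 5.17, 0.87 and 9.05 FPKM with a Ler mother. The apical cell had 1.32, 0 and 0 FPKM with a Col mother and 0.54, 0 and 0 FPKM with a Ler mother. The basal cell had 2.35, 7.32 and 21.09 FPKM with a Col mother and 1.7, 0.07 and 6.93 FPKM with a Ler mother. The ranges of all 4 cell types overlapped. The highest value comes from a library whose protocol names the second kit, and without the 4 such libraries the suspensor averaged 5.77 ± 5.02 FPKM (SD, n = 5) and the basal cell 3.79 ± 3.07 FPKM (SD, n = 3), against 5.67 ± 4.50 FPKM and 6.58 ± 7.69 FPKM with them (SD, n = 6 each).

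COPT3 and COPT4 were listed at or near 0 in every cell type. COPT3, the divergent neighbour of COPT1, was listed at 0 in 23 libraries and at 0.08 FPKM in 1 basal cell library with a Ler mother. COPT4, which lacks the methionine motifs typical of the family, was listed at 0 in all 24. Of the 7 genes, 5 reached 1 FPKM in at least 3 libraries, the minimum for the fit across all loci, and COPT3 and COPT4 did not. COPT3 holds 3 GTAC cores before its start and was listed at 0 beside a COPT1 gene at up to 195.42 FPKM.

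Summed over the family, the embryo proper held the least COPT transcript with almost no COPT2 in it. The summed COPT level was 41.6 ± 9.56 FPKM in the embryo proper, 499.5 ± 185 FPKM in the suspensor, 533 ± 154 FPKM in the apical cell and 264 ± 112 FPKM in the basal cell (SD, n = 6 each). The highest embryo proper library (51.6 FPKM) was below the lowest library of the others (162.36 FPKM, a basal cell library). COPT2 made up 0% to 1.31% of the sum in the embryo proper, 51.6% to 73.3% in the suspensor, 83.5% to 89.7% in the apical cell and 32.9% to 70.3% in the basal cell. In the embryo proper the sum was instead split between COPT1 (49.9% ± 5.56) and COPT5 (48.6% ± 4.95; SD, n = 6 each). COPT2 exceeded COPT1 in each of the 18 other libraries, by a ratio of 1.40 to 4.66 in the suspensor, 7.44 to 16.1 in the apical cell and 1.32 to 5.61 in the basal cell.

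**Figure D3:**
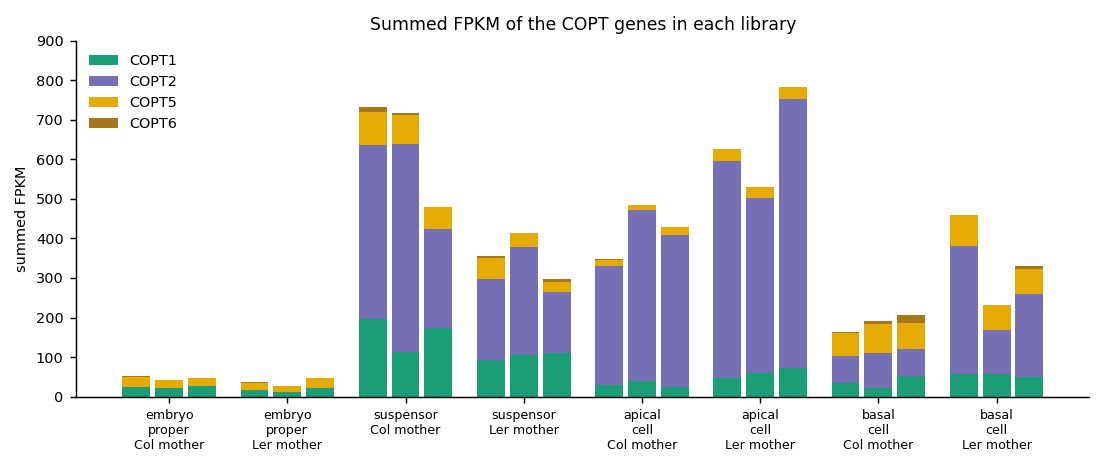
Summed FPKM of COPT1, COPT2, COPT5 and COPT6 (stacked colours) in each library, by cell type and mother; each bar is 1 library. The embryo proper bars end at 25.83 to 51.6 FPKM with hardly any COPT2, and the apical cell bars, at 347.31 to 782.79 FPKM, are 83.5% or more COPT2.

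SPL7 itself was present at a low level in every library and did not separate the cell types. The embryo proper had 9.96, 5.74 and 8.36 FPKM with a Col mother and 6.47, 6.62 and 7.13 FPKM with a Ler mother. The suspensor had 6.35, 5.12 and 3.42 FPKM with a Col mother and 19.84, 12.56 and 11.72 FPKM with a Ler mother. Those suspensor values hold both the lowest and the highest SPL7 level of the series, and the 3 libraries with a Ler mother lay above the 3 with a Col mother. The apical cell had 5.91, 15.02 and 8.84 FPKM with a Col mother and 5.77, 11.68 and 7.9 FPKM with a Ler mother. The basal cell had 12.05, 8.79 and 7.58 FPKM with a Col mother and 10.35, 9.05 and 11.73 FPKM with a Ler mother. All 4 ranges overlapped, and the fitted log2 differences between cell types ran from -0.23 (embryo proper minus apical cell) to -0.16 (apical minus basal cell; SE 0.29 each). COPT2 spanned 0 to 680.88 FPKM across libraries in which SPL7 spanned 3.42 to 19.84 FPKM. A relation between the levels of these genes was not tested.

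How many of the 5 genes did not overlap between the groups is given beside the share of all 18206 tested loci. The genes were chosen with these contrasts known, so nothing is read from the counts. Between embryo proper and apical cell COPT2 alone did not overlap, against 19.4% of loci. Between suspensor and basal cell COPT1 alone did not, against 16.2%. Between apical and basal cell COPT5 alone did not, against 10.2%, and between embryo proper and suspensor COPT1 and COPT2 did not, against 31.5%.

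The direction of the cross went with COPT1, COPT2 and COPT5 levels in opposite ways in the suspensor and in the apical cell, whereas COPT6 differed by 0.15 and 0.20 (SE 0.80 each) with overlapping ranges. In the suspensor COPT1, COPT2 and COPT5 were higher with a Col mother than with a Ler mother, by fitted log2 differences of 0.60, 0.91 and 0.94, although the COPT2 ranges overlapped. In the apical cell all 3 were lower with a Col mother, by -0.97, -0.57 and -0.82, with no overlap for COPT1, COPT2 and COPT5. In the basal cell COPT2 was lower with a Col mother, by -1.40 and with no overlap, and COPT1 differed by -0.66 with overlapping ranges. Without the 4 libraries that name a second kit, 3 of which are basal cell libraries, the COPT2 difference was -2.04. That setting leaves replicate 1, the highest basal cell library at 323.24 FPKM, as the only one with a Ler mother. The embryo proper had COPT1 higher with a Col mother, by 0.58, and COPT2 listed at 0 with a Col mother alone (SE of these differences with all libraries 0.30 to 0.33, n = 3 each). SPL7 differed by -1.39 in the suspensor (SE 0.41), where its 3 Col-mother libraries were the 3 lowest. Of the 5 genes, 2 did not overlap between mothers in the embryo proper (7.27% of all tested loci), 3 in the suspensor (12.2%), 3 in the apical cell (14.2%) and 1 in the basal cell (24%). Mother and father change together between the crosses, so what goes with the mother and what goes with the father cannot be told apart from these values.

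The other copper genes were taken from a list of 67 in 7 roles, of which 37 passed the minimum and were tested with limma on log2(FPKM + 1), p-values being adjusted over all 18206 loci by the Benjamini-Hochberg method. Comparisons that share a cell type share its libraries. Between embryo proper and apical cell, CSD1 and CSD2, the cytosolic and plastid copper-zinc superoxide dismutases, and CCS, the chaperone that loads them with copper, rose together, and the FSD1 transcript fell. CSD1 averaged 183 ± 34.1 FPKM in the embryo proper and 29.2 ± 16.3 FPKM in the apical cell (log2 difference 2.76, SE 0.32, limma adjusted p = 6.09e-07). CSD2 averaged 236 ± 25.6 FPKM in the embryo proper and 74.4 ± 23.1 FPKM in the apical cell (1.71, SE 0.22, adjusted p = 2.21e-06). FSD1 averaged 145 ± 27.2 FPKM in the embryo proper and 599 ± 202 FPKM in the apical cell (-1.99, SE 0.23, adjusted p = 5.77e-07; SD, n = 6 each). CCS rose by 1.44 (limma adjusted p = 0.00408). In this contrast COPT2 was higher in the apical cell, the side with more FSD1 and less CSD1. The other cell type comparisons did not share this in full. CSD1 was not called between suspensor and basal cell (-0.47) or between embryo proper and suspensor (0.32). FSD1 was not called between apical and basal cell (0.47). A relation of COPT2 to these genes was not tested.

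In all, 6 of the 37 rose between embryo proper and apical cell, as did 10.2% of all tested loci, and 7 fell, as did 11.7%. That is 35.1% called against 21.9% of all loci, with a median log2 difference of 0.00 over the 37 and -0.07 over all loci. OPT3, a phloem iron and copper transporter gene, rose by 3.37 in the embryo proper. The nicotianamine synthase genes NAS2 and NAS4 were at 0.33 to 40.58 and 0.33 to 36.93 FPKM there. In the apical cell they were at 0 to 0.21 and 0 to 2.09 FPKM, and both passed the limma test. However, NAS4 could not have reached the minimum of the fit without its embryo proper libraries. Its calls, here and below, thus support nothing, although the counts given include them. MT2A and MT2B, metallothionein genes whose products bind copper, fell (-1.89 and -2.83). CITF1, a basic helix-loop-helix regulator of copper uptake, averaged 1.54 ± 1.32 FPKM in the embryo proper and 14.2 ± 10.2 FPKM in the apical cell (-2.51, SE 0.44, limma adjusted p = 0.000137; SD, n = 6 each). MIR408, YSL2 and ATX1 (a copper chaperone gene) fell (-1.84, -1.63 and -0.83). The MIR408 call was lost without apical cell, Col mother, replicate 3 (adjusted p = 0.0616) or Ler mother, replicate 1, and the ATX1 call was lost without any of 6 single libraries.

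Between apical cell and basal cell, most of the copper genes that were called were lower in the apical cell. MIR408 and CITF1 rose in the apical cell (log2 differences 2.55 and 2.12, limma adjusted p = 0.00135 and 0.00105), and they were the only 2 of the 37 to do so, where 11.8% of all tested loci did. MIR408 averaged 26.9 ± 28.6 FPKM in the apical cell, from 7.44 to 81.44, and 2.47 ± 1.32 FPKM in the basal cell, from 1.14 to 4.2 (SD, n = 6 each), so that the ranges did not overlap. In the other direction 14 genes fell, as did 12.2% of all loci. They include the superoxide dismutase genes CSD1 (-2.91), CSD3 (the peroxisomal one, -1.75) and CSD2 (-1.33), with CCS (-1.42). The mitochondrial metal reductase gene FRO3 (-2.31), YSL2 (-1.78), OPT3 (-1.75), YSL3 (-1.63) and MT2B (-1.59) fell too. The iron-deficiency regulator gene bHLH38 was listed at 0 in all 6 apical cell libraries and at 0 to 14.45 FPKM in the basal cell. The share called was 43.2% against 24% of all tested loci, with a median of -0.46 over the list and 0.03 over all loci. CSD1 averaged 29.2 ± 16.3 FPKM in the apical cell and 202 ± 26.4 FPKM in the basal cell (SD, n = 6 each), while FSD1, at 599 ± 202 FPKM and 659 ± 618 FPKM, did not pass the test, with 110.46 to 262.09 FPKM in basal cells from a Col mother and 727.92 to 1650.91 FPKM in those from a Ler mother. Without the 4 libraries that name a second kit, OPT3, MT2A and COX17-2 were no longer called, and bHLH38 was no longer tested. The log2 difference of OPT3 was then -1.52, that of MT2A -0.77 (-1.21 with all libraries) and that of COX17-2 -1.17 (-1.24). FSD1 stood at 0.95 (0.47 with all libraries). That setting leaves replicate 1 as the only Ler-mother basal cell library, so only the sizes are given. Here and below, bHLH38 reached the minimum of the fit only through the 3 Col-mother basal cell libraries in which it was high, so its calls support nothing.

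**Figure D4:**
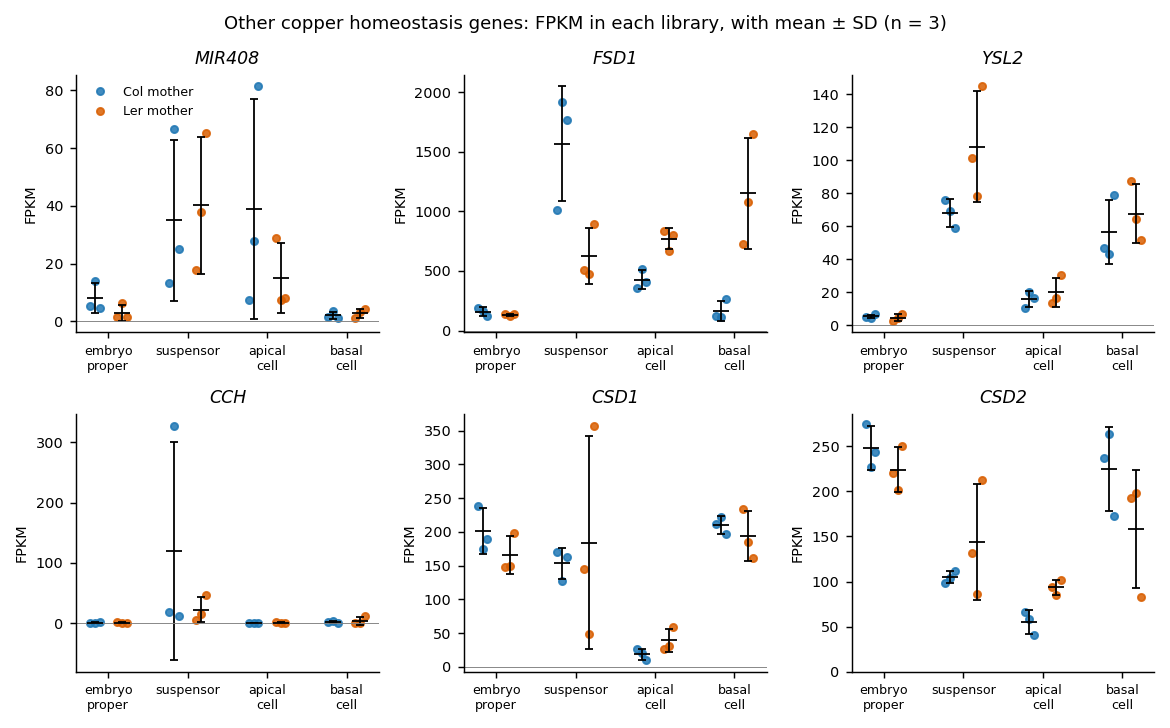
FPKM of MIR408, FSD1, YSL2, CCH, CSD1 and CSD2 (panels, each with its own linear axis) in every library, by cell type and mother (blue, Col; orange, Ler); bars mark the mean and SD of 3 libraries. CSD1 is at 10.42 to 58.79 FPKM in the apical cell and at 147.91 FPKM or more in the embryo proper and the basal cell, and the highest CCH value, 327.78 FPKM, is 1 suspensor library.

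Between suspensor and basal cell, 14 of the 37 rose, as did 18.9% of all tested loci, and 9 fell, as did 26%. That is 62.2% called against 44.9% of all loci, with a median log2 difference of 0.05 over the list and -0.15 over all loci. MT2A rose most. It averaged 1734 ± 867 FPKM in the suspensor and 76.9 ± 38.9 FPKM in the basal cell (log2 difference 4.46, SE 0.33, limma adjusted p = 3.75e-10; SD, n = 6 each). OPT3 rose by 3.75, MIR408 by 3.33 and FSD1 by 1.21, and 4 of the 5 copper-transporting P-type ATPase genes rose: HMA1 by 1.70, HMA5 by 1.45, RAN1 by 1.36 and PAA1 by 1.06. CCH rose by 3.61 (adjusted p = 0.000277), with 5.76 to 327.78 FPKM in the suspensor and 0 to 11.2 FPKM in the basal cell. It rose by 2.88 without suspensor, Col mother, replicate 2, the highest library, and by 4.21 without basal cell, Ler mother, replicate 3. FSD2 and FSD3, plastid iron superoxide dismutases of the plastid transcription complex, fell (-3.04 and -2.01), and HCC2, a homologue of a mitochondrial copper chaperone, fell as well (-3.15). The FSD3 difference was -2.79 without suspensor, Ler mother, replicate 1. CITF1 was listed at 0 in all 6 suspensor libraries and at 0 to 3.54 FPKM in the basal cell, and NAS2 was listed at 0 to 20.79 FPKM in the suspensor and at 0 in all 6 basal cell libraries. COX17, COX17-2, CCS, CSD2 and bHLH38 were also lower, and ZIP4, PETE2, FRO7 and MT2B higher, among the called genes. FRO7 could not have reached the minimum of the fit without its suspensor libraries. Its calls, here and below, thus support nothing, although the counts given include them. Without the 4 libraries that name a second kit, 34 of the list were tested, 10 rose and 5 fell. HMA1, HMA5, PAA1, ZIP4, PETE2, CITF1, CCS and COX17-2 were no longer called (adjusted p = 0.0501 to 0.184), nor was FRO7 (adjusted p = 0.712), bHLH38 was no longer tested, and PAA2 and FRO3 were now called as higher. CSD2, RAN1, CCS, COX17-2 and PETE2 were each also lost when 1 of 3 or more single libraries was left out.

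Between embryo proper and suspensor, 7 of the 37 rose, as did 28.5% of all tested loci, and 16 fell, as did 22.4%. That is 62.2% called against 50.9% of all loci, with a median log2 difference of -0.60 over the list and 0.12 over all loci. Among the 16 were 6 of 7 reductase or uptake genes (FRO7 with them), 3 of 5 P-type ATPase genes and MIR408. The other roles went both ways or up. Of 8 chaperone genes 2 fell and 2 rose, and of 8 superoxide dismutase or copper protein genes 2 fell and 3 rose. Of 6 chelator genes 2 fell and 1 rose, and of 2 regulator genes 1 rose. MT2A fell to 7.80 ± 3.30 FPKM in the embryo proper, against 1734 ± 867 FPKM in the suspensor, and MT2B to 32.9 ± 12.5 FPKM, against 1221 ± 239 FPKM (log2 differences -7.55 and -5.22, limma adjusted p = 3.29e-14 and 2.58e-14; SD, n = 6 each). YSL2 (-3.89), FRO3 (-3.46), OPT3 (-2.12), the zinc and copper uptake gene ZIP4 (-2.03) and YSL3 (-1.52) fell. So did CCH (-4.16), FSD1 (-2.73) and MIR408 (-2.62). FSD1 averaged 145 ± 27.2 FPKM in the embryo proper and 1097 ± 618 FPKM in the suspensor (SD, n = 6 each). FSD3, HCC2 and FSD2 rose by 2.92, 2.89 and 2.78, NAS4 was listed at 0 in all 6 suspensor libraries and at 0.33 to 36.93 FPKM in the embryo proper, and CSD2 and CCS rose by 0.98 each. The CCH difference was -3.43 without suspensor, Col mother, replicate 2, and that of FSD3 was 3.70 without suspensor, Ler mother, replicate 1. CCS was lost without any of 5 single libraries and CITF1, listed at 0 throughout the suspensor, without any of 3, and both were lost without the 4 libraries that name a second kit (adjusted p = 0.073 and 0.0535).

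**Figure D5:**
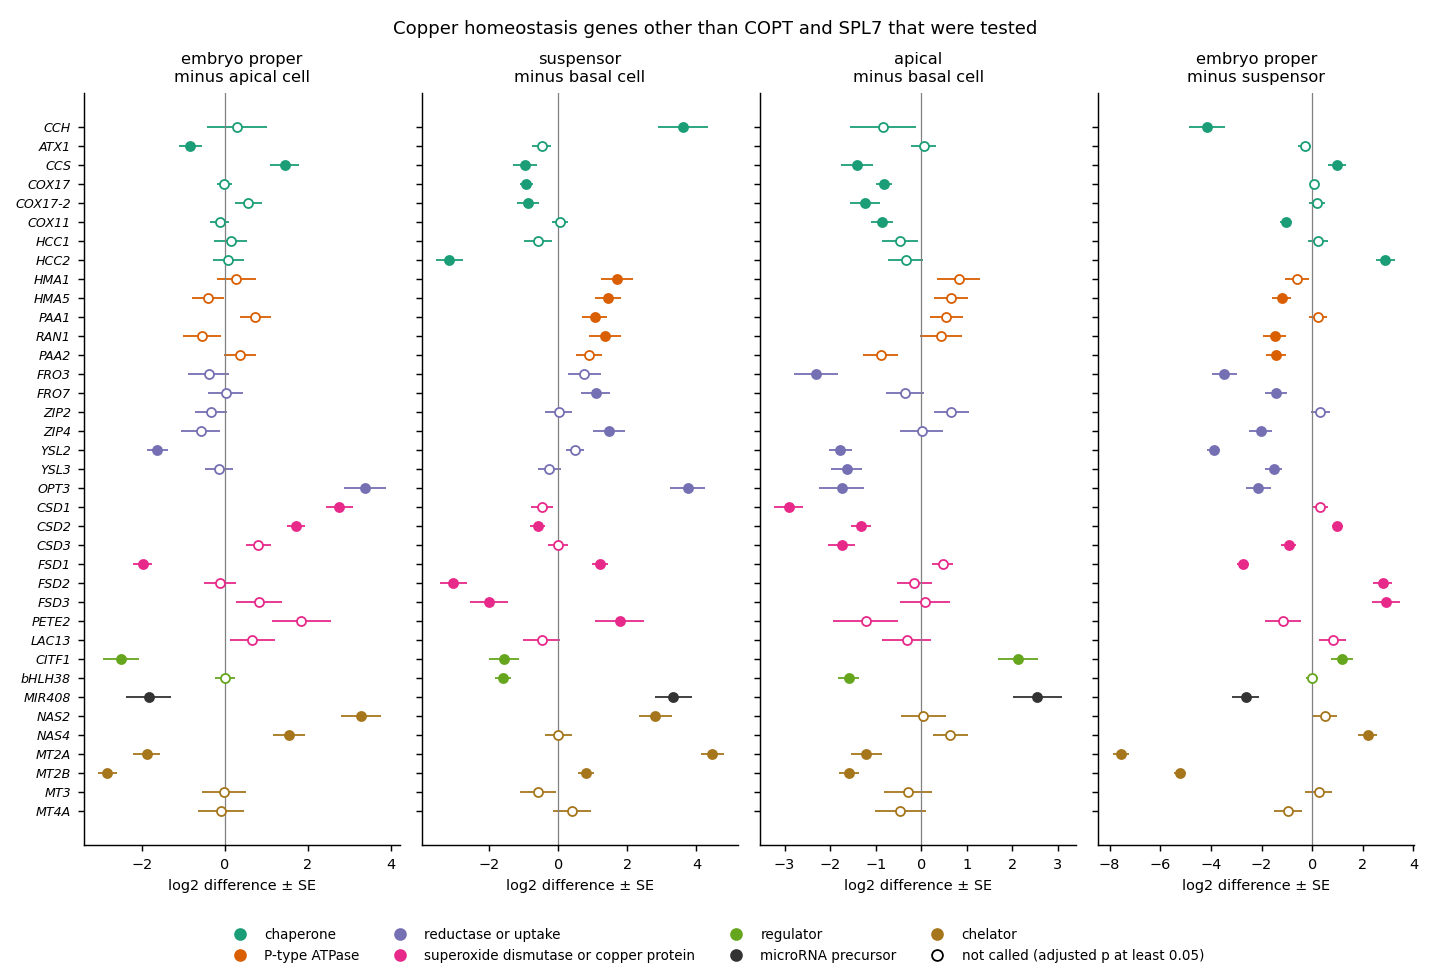
Fitted log2 differences, with their SE, of the 37 tested copper genes (rows, coloured by role) in 4 comparisons (columns, each with its own axis); filled points passed the limma test at an adjusted p below 0.05. More filled points lie left of 0 for apical minus basal cell (14 against 2) and for embryo proper minus suspensor (16 against 7).

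Whether the lineage difference itself changed with stage was tested as an interaction, embryo proper minus suspensor less apical minus basal cell. Of the 37, 10 were positive, as were 19.3% of all tested loci, and 9 were negative, as were 16.2%. That is 51.4% called against 35.5% of all loci. CSD1 (3.23), CSD2 (2.31) and CCS (2.40) were positive: each was lower in the apical cell than in the basal cell, and of the 3 only CSD2 and CCS were called between embryo proper and suspensor, as higher. MIR408 (-5.17) and FSD1 (-3.20) were negative, MIR408 having passed the test as higher in the early comparison and as lower in the late one (limma adjusted p = 6.66e-06 for CSD1, 1.35e-05 for MIR408 and 7.12e-08 for FSD1). Without the 4 libraries that name a second kit, 7 were positive and 8 negative, and COX17-2, HMA5, ZIP4 and NAS4 were no longer called (adjusted p = 0.0599 to 0.101). COPT2, given as values without a test, averaged 465 FPKM in the apical cell against 145 FPKM in the basal cell, and stood at 0.47 FPKM or less in the embryo proper against 153.74 FPKM or more in the suspensor.

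The mean difference between Col and Ler mothers over the 4 cell types called 2 of the 37, or 5.41% against 0.791% of all tested loci (0.401% positive and 0.39% negative), and both were positive. HCC2 rose by 1.20 (limma adjusted p = 0.0366), with 44.83 to 72.12 FPKM in basal cells from a Col mother and 3.33 to 13.55 FPKM in those from a Ler mother. The bHLH38 transcript was listed at 3.69, 14.45 and 9.5 FPKM in basal cells from a Col mother and at 0 in all others. It was tested only because of those 3 libraries, so its call supports nothing, and the HCC2 call was lost without any of 16 single libraries. Within cell types, 6 of the 37 were called by mother in the basal cell (16.2% against 7.06% of all tested loci) and 3 in the suspensor (8.11% against 4.2%). In the basal cell OPT3 (3.39), HCC2 (2.79) and bHLH38 were higher with a Col mother, and YSL3 (-3.01), FSD1 (-2.82) and CSD3 (-1.40) were lower. In the suspensor FSD3 (2.77), HCC2 (2.00) and FSD1 (1.33) were higher. FSD1 was thus called in opposite directions (limma adjusted p = 1.08e-05 in the basal cell and 0.0202 in the suspensor). Without the 4 libraries that name a second kit, HCC2 in the suspensor and YSL3 and CSD3 in the basal cell were no longer called. Their log2 differences were then 1.89, -2.40 and -1.33. In the basal cell that setting leaves replicate 1 as the only Ler-mother library, so only the sizes are given.

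Many copper genes gave next to no signal. FRO4 and FRO5, the Cu(II) reductases that act at the root surface with COPT uptake, and YSL1 were listed at 0 in all 24 libraries, and IRT1, the root iron transporter, did not exceed 0.06 FPKM. Of 7 microRNA precursors MIR408 alone passed the minimum. MIR398B, MIR397A and MIR397B were listed at 0 throughout, MIR398A did not exceed 0.74 FPKM and MIR398C did not exceed 4.12 FPKM. Precursors are short-lived, and mature microRNAs are not captured by this kind of library, so these values say nothing about mature miR398.

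The SPL family was described for comparison with SPL7, 16 further genes of which 9 were tested. Between embryo proper and apical cell 2 rose and none fell (22.2% against 21.9% of all tested loci). SPL15 was listed at 2.39 to 4.57 FPKM in the embryo proper and at 0 in all apical and basal cell libraries. It reached the minimum only through the embryo proper libraries, in which it was high. Its calls, here and below, thus support nothing, although the shares given count them. SPL2 rose by 1.90. Between suspensor and basal cell SPL1, the relative of SPL7 with a similarly long protein, rose by 2.53 and SPL2, SPL6 and SPL11 fell (44.4% against 44.9%). SPL1 averaged 18.2 ± 9.61 FPKM in the suspensor and 2.28 ± 1.33 FPKM in the basal cell (SD, n = 6 each, limma adjusted p = 1.21e-05). Between apical and basal cell SPL1 rose by 1.63 and SPL2 and SPL6 fell by log2 differences of -1.02 and -1.73 (33.3% against 24%), and between embryo proper and suspensor SPL2, SPL15 and SPL16 rose and SPL1 fell (-1.09; 44.4% against 50.9%). The SPL16 call was lost without any of 16 single libraries, that of SPL1 in the last comparison without any of 4, that of SPL11 without any of 7 and that of SPL2 between apical and basal cell without any of 9. Without the 4 libraries that name a second kit, SPL6 between suspensor and basal cell (adjusted p = 0.128) and SPL16 (0.066) were no longer called. SPL12 and SPL14, at mean levels of 4.20 to 7.18 and 4.85 to 6.99 FPKM, were called in none of these comparisons. The mean over mothers called 0 of the 9 by limma, against 0.791% of all tested loci. Before adjustment, 2435 of all tested loci had a limma p below 0.05. Within cell types SPL2 alone was called, as lower with a Col mother in the basal cell (-2.36, limma adjusted p = 0.00468). That is 11.1% of the 9 in the basal cell, against 7.06% of all tested loci.

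The loci whose pattern was most like each gene were found by the root mean square difference of 8 centred group means on the log2(FPKM + 1) scale, among 13273 loci whose highest group mean reached 10 FPKM. For COPT1 they were GGR (0.24), D-CDES (0.25) and GSTT1 (0.27). D-CDES averaged 24.1 ± 3.78 FPKM in the embryo proper, 126.5 ± 37.5 FPKM in the suspensor, 40.4 ± 18.1 FPKM in the apical cell and 45.6 ± 19.2 FPKM in the basal cell (SD, n = 6 each). For COPT5 they were AT2G37200 (0.10), AT5G55060 (0.17) and SQE2 (0.18), for COPT6 AACT1 (0.12), AT4G13150 (0.25) and AT1G55000 (0.33), and for SPL7 AT1G19860 (0.07), XBAT33 (0.13) and Cand1 (0.15). The measure is not scaled, so it tends to be larger for genes whose groups differ more. COPT2 had no locus as near. Its closest were TLP-3 (1.06), AT5G24790 (1.19) and SWEET12 (1.24), a sucrose exporter gene that averaged 12.1 ± 6.78 FPKM in the embryo proper, 1030 ± 274 FPKM in the suspensor, 623 ± 234 FPKM in the apical cell and 301 ± 91.8 FPKM in the basal cell (SD, n = 6 each).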

How the data were processed

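RNA was measured in 24 libraries of embryo proper, suspensor, apical cell and basal cell from reciprocal Col and Ler crosses, 3 per group. Per the labels' protocols, mRNA was bound to beads and amplified to cDNA with a SMART-Seq kit, and libraries were made with Nextera XT, 4 protocols naming NEBNext as well. The FPKM values were deposited by the authors per locus with 2 decimals; the submitters' processing notes name TopHat2 2.1.1, RSEM and TAIR10, with their roles and parameters not given in the sources used here. The design text of the series has 1-cell embryos; the labels, followed here, have 2-celled ones. Alleles were not analysed here. Steps between low FPKM values fitted a depth of 15.5 to 38.25 M fragments in 22 libraries, as a rough guide that assumes fragments of 100 bases.

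Loci with at least 1 FPKM in 3 or more libraries (18206) were fitted on log2(FPKM + 1) with limma 3.58.1 (R 4.3.3), as 8 group means in 1 fit with a mean-variance trend, and called at a Benjamini-Hochberg adjusted p below 0.05. A log2 difference on this scale understates the change of low genes. Cell type contrasts weight both mothers equally, and mothers were also compared within cell types. The members, the gene lists and the tests were chosen with earlier results of these data known. Text names all 7 members, up to 10 called copper genes and 3 called SPL genes per direction and contrast by size, and the 3 loci most alike for each member whose highest group mean reached 10 FPKM. SPL12, SPL14, genes listed at or near 0 and called copper genes past the first 10 were named after their values were seen. Replicate numbers did not pair libraries: same-numbered libraries' deviations had a mean correlation of 0.00478, with 3 of 84 pairs over 0.1. No 2 libraries held identical values. Alternatives were other pseudocounts, filters, scalings, weights, a block, protocol wording as covariate and libraries left out. Sequences and gene models are RefSeq's, assembly TAIR10.1; the files give loci and no coordinates.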

Additional observations from a re-analysis of the deposited data

Results flagged for a closer look

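Of 20 sets of 6 libraries, 1 member in 1 cell type each, 2 held a library far from the others, where chance alone gives about 1 in 20. The embryo proper library with a Ler mother, replicate 1, listed COPT2 at 0.47 FPKM, with the other 5 at 0 to 0.11 FPKM. The basal cell library with a Col mother, replicate 3, had COPT6 at 21.09 FPKM, with the other 5 at 0.07 to 7.32 FPKM, and its protocol is one of those that name a second kit.

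The lineage difference differed between the stages by the limma interaction test for 19 copper genes (log2 values, embryo proper minus suspensor less apical minus basal cell). Positive were COX17 (0.90), COX17-2 (1.43), NAS4 (1.55), bHLH38 (1.60), CSD2 (2.31), CCS (2.40), FSD3 (2.84), FSD2 (2.93), CSD1 (3.23) and HCC2 (3.23). Negative were MT2A (-6.35), MIR408 (-5.17), MT2B (-3.63), CCH (-3.32), FSD1 (-3.20), YSL2 (-2.11), ZIP4 (-2.04), RAN1 (-1.91) and HMA5 (-1.85). COX17-2 (adjusted p = 0.0599), NAS4 (0.101), ZIP4 (0.099) and HMA5 (0.0647) were no longer called without the 4 libraries that name a second kit, where bHLH38 was no longer tested. CCH (0.0839) and RAN1 (0.0573) were lost at a pseudocount of 0.1, RAN1 (0.0527) also without basal cell, Col mother, replicate 1, and NAS4 at a pseudocount of 5, with library weights and without any of 3 single libraries. In the SPL family SPL6 (2.03), SPL15 (2.03) and SPL2 (3.12) were positive and SPL1 (-2.72) was negative, and SPL6 was no longer called without the 4 libraries (adjusted p = 0.0645). For bHLH38, NAS4 and SPL15, whose transcripts were listed at 0 in 3 or 2 whole cell types, the values depend on the pseudocount. The bHLH38, SPL15 and NAS4 calls support nothing. The bHLH38 and SPL15 genes reached the minimum only through the cell type in which each was high. NAS4 could not have reached it without its embryo proper libraries.

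The crosses differed in opposite directions between cell types for a pair of members. COPT1 with a Col mother was above COPT1 with a Ler mother in the embryo proper (log2 0.58) and in the suspensor (0.60) and below it in the apical cell (-0.97), with no overlap in each. COPT5 with a Col mother was above in the suspensor (0.94) and below in the apical cell (-0.82). These differences between cell types were not tested.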

How the results depend on the processing

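The values are FPKM from 3 libraries per group, without read counts, so no interval for counting error can be given, and how many embryos a library pools is not given in the sources used here. Settings that moved a count of calls by over 1.5 times were few. Library weights gave 6873 loci for embryo proper minus apical cell (3984 as reported), 6715 for apical minus basal cell (4364) and 352 for the mean over mothers (144), which was 304 without the 4 libraries naming a second kit. Those 4 left out, the copper list had 15 calls between suspensor and basal cell (23). The copper calls by mother (2) became 1 at a pseudocount of 5, 1 at a minimum of 5 FPKM, 4 without the 4 libraries, 4 with library weights and 1 with the replicate block, the fit by replicate number, which otherwise lost only SPL16 and PETE2. A minimum of 5 FPKM left SPL calls of 0 (2), 2 (4), 1 (3), 2 (4) and 1 (4) in embryo proper minus apical cell, suspensor minus basal cell, apical minus basal cell, embryo proper minus suspensor and the interaction. Leaving out single libraries gave 62 to 306 loci and 0 to 3 copper genes by mother and 2 to 5 SPL genes between embryo proper and suspensor. Scaling moved the split of copper calls, from 6 higher and 7 lower to 8 and 6 with quantile normalization for embryo proper minus apical cell, and from 14 and 9 to 16 and 6 with median-ratio scaling for suspensor minus basal cell. Median-ratio scaling put the median log2 difference of all loci for suspensor minus basal cell at -0.035 (-0.151 as reported), and the TPM scale put that for apical minus basal cell at 0.135 (0.034). Median-ratio scaling also turned the split of all loci called for embryo proper minus apical cell, from 1855 higher and 2129 lower to 2202 and 1757. No called copper or SPL gene named above changed sign in the settings tried. Over single libraries left out, COPT1 ran from -2.71 to -2.51 for embryo proper minus suspensor and from 1.38 to 1.69 for suspensor minus basal cell, COPT2 from 1.68 to 2.06 and COPT5 from -1.64 to -1.51 for apical minus basal cell. Differences near 0 changed sign in some settings, such as COPT1 for apical minus basal cell (0.11 on the TPM scale) and COPT5 (0.05) and COPT6 (-0.01) for embryo proper minus apical cell with quantile normalization.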
